A study of Mus musculus with 15 samples.

Results

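The 10 genes described here were grouped as MAP kinase phosphatases and early feedback genes: 6 dual-specificity phosphatases of MAP kinases (Dusp1, Dusp2, Dusp4, Dusp5, Dusp6 and Dusp10), 3 immediate early response genes (Ier2, Ier3 and Ier5) and Zfp36. They were chosen by name, with earlier results of these data known. The rows of the RNA count tables whose Ensembl mouse identifier maps to these symbols make up 10 of 37583 gene rows. Counts for all 10 were found, and all 10 passed the filter on low counts, which left 13349 genes to test. RNA was taken from mouse B cell lymphomas, enriched from the tumours without culture by magnetic selection on B220, which B cells carry on their surface. The tumour cells carried either an empty vector (EV, 4 libraries) or, in the 5 libraries named sh-Kmt2d, a hairpin RNA directed at Kmt2d, and the study asked how a lower level of Kmt2d, a histone methyltransferase of enhancers, alters transcription. No strain, age, sex, tumour driver, hairpin sequence or number of hairpins is given in the labels, and nothing in them says that each library is a separate animal. Should libraries come from the same animal, p-values cover no more than their own spread, which may be technical.

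MAP kinases (ERK, JNK and p38) carry signals from the antigen receptor, Toll-like receptors and cytokine receptors to the nucleus of a B cell. Dual-specificity phosphatases remove the phosphates from both the threonine and the tyrosine of the activation loop and so switch the kinases off. Many of them are transcribed within minutes of the signal that they end, together with the Ier genes and Zfp36, whose short-lived messages are typical of the immediate early response. Zfp36 (tristetraprolin) acts one step later, since it binds AU-rich elements of messages and hands them to the decay machinery.

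Cyclic AMP response elements (CRE) and serum response elements (CArG boxes) are classical entry points of such signals at the promoters of early genes. The RefSeq promoter table used here (build GRCm38.p6) matched 8 of the 10 genes, all but Dusp4 and Ier2. The 250 bases before the start site are shown for the 3 genes with the most negative log2 fold changes among those with an entry, and for Dusp5, whose difference has the opposite sign. Capitals mark CRE, CRE half-site and CArG matches. The window of Dusp1 is chr17:26508473-26508722 (minus strand), that of Zfp36 chr7:28379229-28379478 (minus strand), that of Dusp6 chr10:99262981-99263230 (plus strand) and that of Dusp5 chr19:53528895-53529144 (plus strand).
Dusp1: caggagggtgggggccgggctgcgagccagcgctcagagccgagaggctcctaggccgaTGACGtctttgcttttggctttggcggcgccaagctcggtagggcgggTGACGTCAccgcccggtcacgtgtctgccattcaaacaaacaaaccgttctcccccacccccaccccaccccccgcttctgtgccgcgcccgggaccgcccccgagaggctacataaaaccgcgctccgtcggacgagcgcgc
Zfp36: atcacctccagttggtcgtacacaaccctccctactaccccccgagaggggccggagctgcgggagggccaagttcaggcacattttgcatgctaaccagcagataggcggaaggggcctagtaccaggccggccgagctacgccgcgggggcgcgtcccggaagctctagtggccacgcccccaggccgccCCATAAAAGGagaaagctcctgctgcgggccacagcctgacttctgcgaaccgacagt
Dusp6: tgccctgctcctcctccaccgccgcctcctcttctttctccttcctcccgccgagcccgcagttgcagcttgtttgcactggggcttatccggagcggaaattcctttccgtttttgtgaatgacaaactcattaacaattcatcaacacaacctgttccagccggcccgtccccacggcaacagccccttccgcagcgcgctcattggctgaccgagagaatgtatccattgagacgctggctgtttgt
Dusp5: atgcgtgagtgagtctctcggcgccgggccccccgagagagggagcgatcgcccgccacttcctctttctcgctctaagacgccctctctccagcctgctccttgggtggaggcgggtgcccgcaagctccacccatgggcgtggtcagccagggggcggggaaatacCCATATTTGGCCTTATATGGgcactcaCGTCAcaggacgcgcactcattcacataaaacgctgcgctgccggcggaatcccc
Dusp1 held a full CRE (TGACGTCA) that starts at -143 from the start site and a half-site (TGACG) at -191. A full CRE stood in 1.55% and a half-site in 17.8% of the 32851 promoter windows of the same length, both strands searched, and every full CRE also contains a half-site. Zfp36 held a CArG box at -58, and Dusp5 held a pair of them at -82 and -72 with a half-site at -55. CArG boxes stood in 1.47% of all windows and in 2 of the 8 member windows. No match to any of these letters was found in the Dusp6 window. Of the other motifs searched, a GC box (GGGCGG) was in 7 of 8 windows against 32.7% of all windows, and an NF-kB site was in 1, that of Ier3, against 3.9%. An AP-1 site (TGACTCA, 4.46% of all windows), an EGR site (GCGTGGGCG, 0.536%) and a TATA box (TATAAA, 12.4%) were in none. These matches describe letters only.

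Gene counts per library ran from 5925745 (sh-Kmt2d replicate 5) to 29284830, so that 3 counts corresponded to between 0.0957 and 0.946 CPM (counts scaled to library size). Several libraries stood apart. Kmt2d, the targeted gene, was at 498, 252, 492 and 94.4 CPM in EV replicates 1 to 4 and at 57.4, 46.8, 204, 18.9 and 9.78 CPM in sh-Kmt2d replicates 1 to 5, so EV replicate 4 lay below sh-Kmt2d replicate 3 (log2 fold change -2.31, edgeR adjusted p = 0.167). A long-minus-short index, the median log2 CPM of 24 genes with very long transcripts minus that of 25 genes with short ones, was 2.65, 2.04, 2.66 and 0.78 for EV, beside -0.18, -0.54, 1.32, -2.44 and -6.31 for sh-Kmt2d. Kmt2d and the index ranked the libraries in the same order, except that EV replicates 1 and 3 changed places. The lower Kmt2d values therefore cannot be told apart from the course of the index, and the part of each was not tested. Low values of the index, the smallest share of alignments on genes (22.8%) and the smallest scaling factor (0.536) came together in sh-Kmt2d replicate 5. Female-specific Xist and Y-linked Ddx3y were both present in EV replicate 2 (85 and 161 CPM by total counts), and EV replicate 4 and sh-Kmt2d replicate 3 held high Xist (221 and 453 CPM) with little Ddx3y (0.235 and 0.279 CPM). Library titles begin with the numbers 78 (1 EV library), 87 (3 EV libraries), 103 (sh-Kmt2d replicates 1 to 3) or 110 (sh-Kmt2d replicates 4 and 5), whose meaning the labels leave unstated.

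Of the 10 genes, 8 had lower fitted levels in sh-Kmt2d than in EV, against 6927 of all 13349 tested genes. The exceptions were Dusp5 and Dusp10. The median log2 fold change of the 10 genes was -0.77, against -0.04 over all tested genes. No member passed the adjusted threshold of edgeR's quasi-likelihood test (Benjamini-Hochberg over 13349 genes, adjusted p under 0.05), and neither did any other gene in the lower direction (0%). At an unadjusted p under 0.05, 4 of 10 members were lower (Dusp1, Dusp6, Ier2 and Zfp36), a rule that called 11.1% of all tested genes lower. DESeq2 called 3 of 10 lower after adjustment (Dusp1, Dusp6 and Zfp36), against 3.22% of the 12844 genes to which it gave an adjusted p. For no member did the groups stand fully apart, while 5.12% of tested genes had every sh-Kmt2d library below every EV library. With the first title number as a random block, limma left 1 member (Dusp1) lower at an unadjusted p under 0.05, against 7.03% of tested genes. RNA of bulk tissue cannot tell fewer cells of a type from less RNA per cell.

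**Figure D1:**
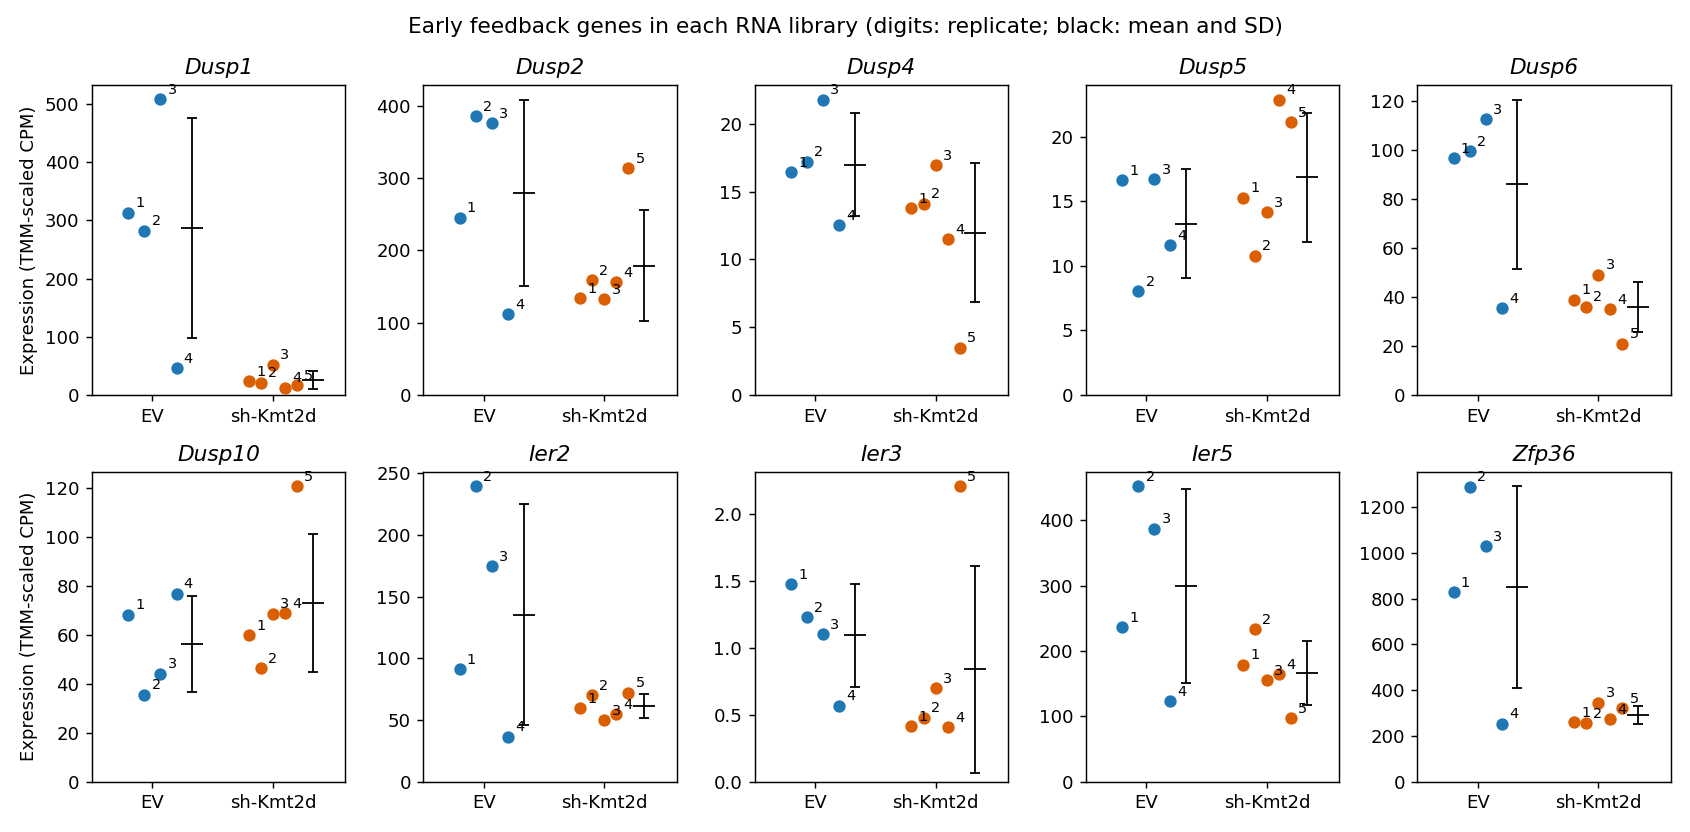
TMM-scaled CPM of each of the 10 genes in every RNA library, with the replicate number beside each point and the mean and SD in black for EV (blue, 4 libraries) and sh-Kmt2d (orange, 5 libraries). EV replicate 4 is the lowest EV library in 8 of the 10 panels, and each panel has its own axis from 0.

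Dusp1 (ENSMUSG00000024190), a nuclear phosphatase of p38, JNK and ERK, had the widest separation among the members. Its levels in EV replicates 1 to 4 were 313, 283, 508 and 45.8 CPM. In sh-Kmt2d replicates 1 to 5 they were 23.5, 21.3, 52.1, 12.6 and 16.4 CPM. The groups overlapped through a single pair of libraries, EV replicate 4 and sh-Kmt2d replicate 3, and the other 3 EV libraries all lay far above every sh-Kmt2d library. Counts behind these values ran from 10157 in EV replicate 3 to 52 in sh-Kmt2d replicate 5, so that counting noise is small beside the spread between libraries. The ratio of the group means was 11.4-fold, and only 0.0524% of tested genes had a lower log2 fold change than its -3.51 ± 0.66 (approximate SE). In spite of that size, the edgeR adjusted p was 0.167, and DESeq2 gave an adjusted p of 3.25e-05. Leaving out any 1 of the 9 libraries kept the log2 fold change between -3.97 and -3.09. The edgeR adjusted p over those fits ran from 0.0597, without EV replicate 4, to 0.349.

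Dusp2 (ENSMUSG00000027368) is a nuclear phosphatase of ERK and p38 that is typical of activated lymphoid and myeloid cells. It stood at 245, 386, 376 and 112 CPM in the EV libraries. The sh-Kmt2d libraries gave 134, 158, 132, 156 and 314 CPM. Here EV replicate 4 was the lowest library of all, and sh-Kmt2d replicate 5 lay among the high EV values. By total counts, however, the latter held 168 CPM, inside the 143 to 171 CPM of the other sh-Kmt2d libraries. The log2 fold change of -0.64 ± 0.42 (SE) missed the threshold (edgeR adjusted p = 0.284, DESeq2 adjusted p = 0.32). It became -0.94 without sh-Kmt2d replicate 5, -0.97 with total counts as library sizes and -1.21 when the long-minus-short index entered the fit as a covariate.

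Dusp4 (ENSMUSG00000031530), a nuclear phosphatase of ERK and JNK, and Dusp5 (ENSMUSG00000034765), a nuclear phosphatase specific to ERK, rested on fewer counts. Dusp4 was at 16.4, 17.2, 21.8 and 12.5 CPM in EV, beside 13.8, 14.1, 17.0, 11.5 and 3.47 CPM in sh-Kmt2d. The lowest of these values rests on 11 counts in sh-Kmt2d replicate 5, and the other 4 sh-Kmt2d libraries lay within or just under the EV range. Its log2 fold change was -0.48 ± 0.38 (SE, edgeR adjusted p = 0.365). Without sh-Kmt2d replicate 5 it was -0.27, and the sign turned, to 0.40, once the index was a term. Dusp5 ran the other way, at 16.6, 8.02, 16.7 and 11.6 CPM in EV, beside 15.3, 10.8, 14.2, 22.9 and 21.1 CPM in sh-Kmt2d. Only the sh-Kmt2d libraries of title 110 lay above the EV range, and by total counts replicate 5 of them was inside it (11.3 CPM). The log2 fold change of 0.34 ± 0.31 (SE, edgeR adjusted p = 0.432) was 0.03 without title 110 and 0.10 with total counts as library sizes.

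Dusp6 (ENSMUSG00000019960) is the cytoplasmic phosphatase specific to ERK, and its message is widely used as a readout of ERK activity. EV libraries held 96.5, 99.5, 113 and 35.3 CPM of it. The sh-Kmt2d libraries held 38.8, 36.1, 49.0, 34.8 and 20.8 CPM. EV replicates 1 to 3 were close to one another and all above every sh-Kmt2d library, whereas EV replicate 4 fell among the sh-Kmt2d values. Group means were 86.0 ± 34.5 CPM (SD) over the 4 EV libraries and 35.9 ± 10.1 CPM (SD) over the 5 sh-Kmt2d libraries, and the log2 fold change was -1.26 ± 0.36 (SE). That difference missed the edgeR threshold (adjusted p = 0.167) and passed that of DESeq2 (adjusted p = 0.0346). It was -0.57 in the fit that holds the index as a term.

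Dusp10 (ENSMUSG00000039384), which acts on JNK and p38, was the other member with a positive difference. Its 4 EV values were 68.4, 35.5, 44.2 and 76.9 CPM. Over the sh-Kmt2d libraries the values were 59.9, 46.4, 68.7, 69.0 and 120.8 CPM. In this gene EV replicate 4 was the highest EV library, and EV replicates 2 and 3, the highest for most other members, were the lowest. The log2 fold change was 0.37 ± 0.34 (SE, edgeR adjusted p = 0.436). It was 0.11 without sh-Kmt2d replicate 5 and 0.07 with total counts as library sizes, and with the index as a term it was -0.17.

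Ier2 (ENSMUSG00000053560), a small nuclear protein induced by growth factors, had one of the tightest sh-Kmt2d groups. It was at 91.1, 239, 175 and 36.6 CPM in EV. The sh-Kmt2d values were 59.4, 70.1, 50.04, 54.8 and 72.2 CPM, within 1.44-fold of one another, while the EV libraries spread over 6.54-fold. EV replicate 4 lay below every sh-Kmt2d library in these TMM-scaled values. By total counts the sh-Kmt2d spread was wider. On that scale sh-Kmt2d replicate 5 held 38.6 CPM, below EV replicate 4 (40.4 CPM) and the other sh-Kmt2d libraries (54.6 to 75.5 CPM). The log2 fold change was -1.14 ± 0.46 (SE, edgeR adjusted p = 0.167, DESeq2 adjusted p = 0.0936). Without EV replicate 2, the library that holds both Xist and Ddx3y, it was -0.73, and without EV replicate 4 it was -1.46.

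Ier5 (ENSMUSG00000056708), an early gene whose protein binds the phosphatase PP2A and the heat shock factor HSF1, was at 237, 452, 387 and 123 CPM in EV. In sh-Kmt2d it was at 179, 233, 155, 165 and 97.1 CPM. Replicates 1 to 3 of EV again topped every sh-Kmt2d library, the closest pair being EV replicate 1 and sh-Kmt2d replicate 2. The log2 fold change of -0.85 ± 0.40 (SE) missed the threshold (edgeR adjusted p = 0.184, DESeq2 adjusted p = 0.117) and was -0.30 with the index as a term. Ier3 (ENSMUSG00000003541), which modulates ERK signals and survival, was near the detection limit, with 6 to 22 counts in every library. It reached 0.568 to 1.47 CPM in EV and 0.408 to 2.21 CPM in sh-Kmt2d, the highest value being 7 counts in sh-Kmt2d replicate 5, which by total counts (1.18 CPM) was below EV replicate 1 (1.61 CPM). Its log2 fold change was -0.68 ± 0.53 (SE, edgeR adjusted p = 0.363), and -1.11 without sh-Kmt2d replicate 5.

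Zfp36 (ENSMUSG00000044786), the message decay factor, was counted deeply in every library (1018 to 20567 counts). EV replicates 1 to 4 gave 829, 1288, 1029 and 254 CPM. The sh-Kmt2d libraries gave 259, 256, 344, 273 and 321 CPM, a spread of 1.35-fold. EV replicate 4 was marginally below the lowest sh-Kmt2d library, and the other 3 EV libraries were far above the highest. By total counts, however, EV replicate 4 held 279.8 CPM. The sh-Kmt2d libraries then held 277.1, 275.4, 380.1, 272.2 and 171.8 CPM, a wider spread, and only replicate 3 of them lay above EV replicate 4. Group means were 849.9 ± 439.9 CPM (SD) over the 4 EV libraries and 291 ± 39.9 CPM (SD) over the 5 sh-Kmt2d libraries. The log2 fold change was -1.55 ± 0.41 (SE), lower than that of all but 3.37% of tested genes (edgeR adjusted p = 0.167, DESeq2 adjusted p = 0.0222). With the index as a term it was -1.43, and leaving out any single library kept it between -1.85 and -1.29.

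**Figure D2:**
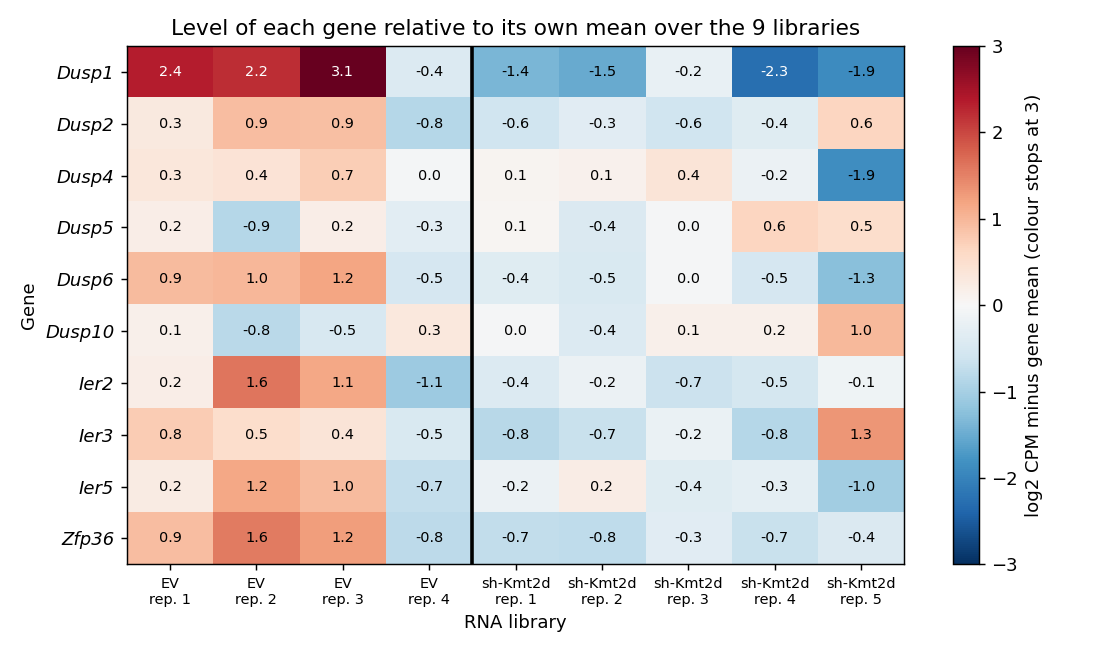
Log2 CPM of each gene (rows) in each library (columns) minus the gene's own mean over the 9 libraries, printed in the cells, with the black line between EV and sh-Kmt2d. Dusp1, Dusp6, Ier2, Ier5 and Zfp36 are above 0 in EV replicates 1 to 3 and below 0 in EV replicate 4, and in the sh-Kmt2d libraries only Ier5 in replicate 2 is clearly above 0, at the level of EV replicate 1.

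For several members the EV libraries differed more from one another than the sh-Kmt2d libraries did. On the log2 CPM scale, the SD of Zfp36 was 1.05 over EV and 0.19 over sh-Kmt2d, that of Ier2 was 1.2 and 0.23, and that of Dusp1 was 1.52 and 0.77. The low scaling factor of sh-Kmt2d replicate 5 enters these SDs, which were not computed by total counts. By total counts that library was the lowest sh-Kmt2d library for Zfp36 (171.8 CPM), Ier2 (38.6 CPM) and Dusp1 (8.775 CPM). Dusp4 (0.32 and 0.90) and Ier3 (0.53 and 0.91) had the larger SD in sh-Kmt2d, in both cases with replicate 5 at the extreme. The mean log2 CPM of the 10 members was 6.18, 6.31 and 6.47 in EV replicates 1 to 3 and 5.05 in EV replicate 4, beside 5.10, 5.09, 5.34, 5.05 and 5.22 in the sh-Kmt2d libraries. The mean of EV replicate 4 thus stood with those of the sh-Kmt2d libraries. EV replicate 4 was the lowest EV library for 8 of the 10 genes, and EV replicate 2 was the lowest for Dusp5 and Dusp10.

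Leaving out EV replicate 4 changed the counts. At an unadjusted p under 0.05, 6 of 10 members were then lower (Dusp1, Dusp2, Dusp6, Ier2, Ier5 and Zfp36), against 12.7% of 13632 tested genes. In 5 of 10 (Dusp1, Dusp6, Ier2, Ier5 and Zfp36) every remaining EV library lay above every sh-Kmt2d library, against 20.0% of tested genes. None passed the adjusted threshold of edgeR, the lowest adjusted p values being 0.0597 for Dusp1, 0.0615 for Zfp36 and 0.0852 for Dusp6. Without EV replicate 2 the unadjusted count was 3 (Dusp1, Dusp6 and Zfp36), against 7.67% of tested genes. Without sh-Kmt2d replicate 5 it was 6 (Dusp1, Dusp2, Dusp6, Ier2, Ier3 and Zfp36), against 18.1%. A limma-voom fit that weights the libraries by their quality called 8 of 10 members lower after adjustment, but it called 30.3% of all tested genes lower too. It gave sh-Kmt2d replicate 5 a weight of 0.0514 and EV replicate 4 a weight of 0.373, beside 7.63 for sh-Kmt2d replicate 1.

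The title numbers divided each group further. Mean levels of Dusp1 were 313 CPM for title 78 and 279 CPM for title 87 in EV, and 32.3 CPM for title 103 and 14.5 CPM for title 110 in sh-Kmt2d. Dusp6 averaged 96.5, 82.5, 41.3 and 27.8 CPM over the same titles. Zfp36 averaged 829, 857, 286 and 297 CPM. In 7 of 10 members (Dusp1, Dusp2, Dusp4, Dusp6, Ier2, Ier5 and Zfp36) both EV title means lay above both sh-Kmt2d title means. The share of all tested genes with that order was not computed, so the count cannot be read as particular to the members. Each title number is found in 1 group only, so title and vector cannot be told apart. Title 87 against title 103, 3 libraries each, gave 4 members lower at an unadjusted p under 0.05 (Dusp1, Dusp2, Dusp6 and Zfp36), against 7.85% of 13722 tested genes, with log2 fold changes of -3.11 for Dusp1 and -1.58 for Zfp36.

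**Figure D3:**
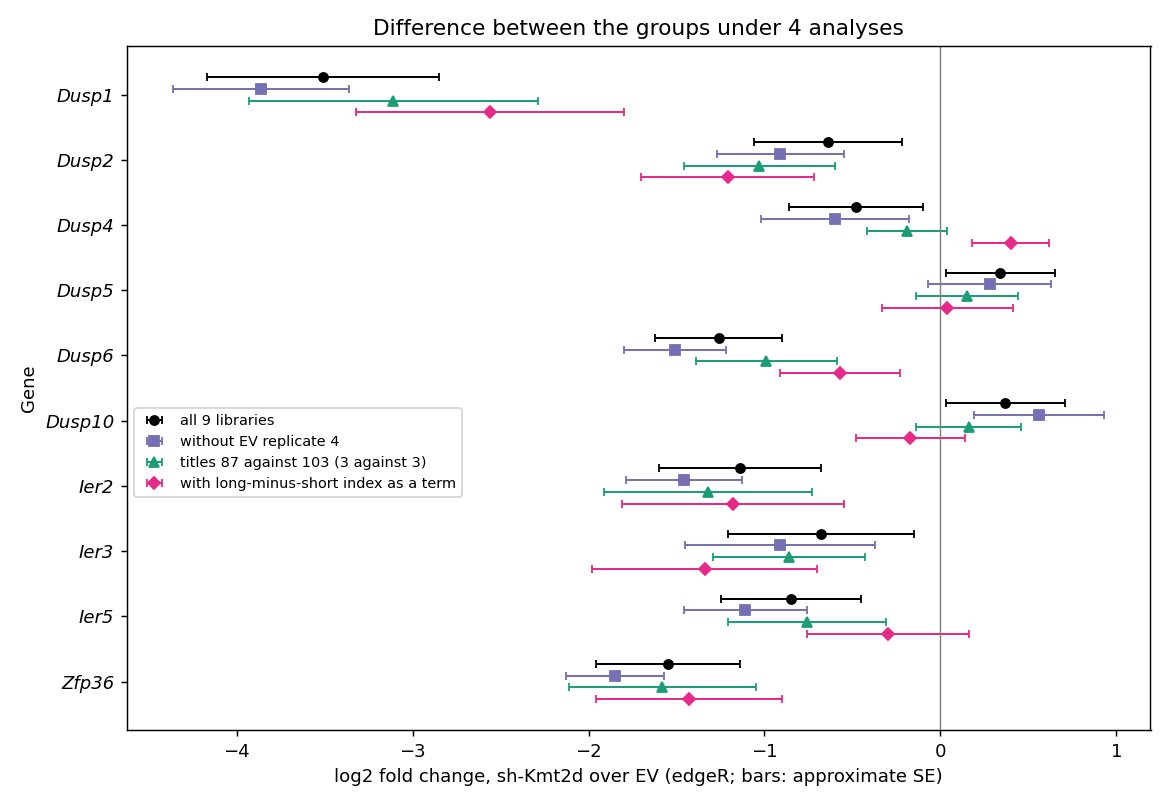
Log2 fold change (sh-Kmt2d over EV) for each gene with its approximate SE from edgeR, over all 9 libraries (black), without EV replicate 4 (violet), for titles 87 and 103 alone (green) and with the index as a term (pink). Dusp1 stays between -3.86 and -2.56 and Zfp36 between -1.85 and -1.43 in these 4 analyses, while Dusp4 and Dusp10 change sign with the index as a term.

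The index itself was lower in every sh-Kmt2d library than in EV replicates 1 to 3, and a fit that holds it as a term moved the members' values unequally. With the index as a term, 3 of 10 members were lower at an unadjusted p under 0.05 (Dusp1 at -2.56, Dusp2 at -1.21 and Zfp36 at -1.43), against 5.33% of tested genes. Ier2 kept a value of -1.18 and Ier3 one of -1.34, and neither reached that level of p. Dusp6 was at -0.57, Ier5 at -0.30 and Dusp5 at 0.04, all nearer to 0 than without the term. Dusp4 and Dusp10 crossed 0, to 0.40 and -0.17. The part of the index in the differences between the groups was not tested beyond this fit.

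Neighbouring genes of the pathway were followed in lists that were chosen by known function, also with earlier results of these data known. Their counts and medians are therefore given as a description. Counts of negative values in the fit of group alone stand beside 6927 of 13349 for all tested genes. Among 15 other dual-specificity phosphatases, 10 were tested, 3 had negative values and the median was 0.26. At an unadjusted p under 0.05 none was lower and 2 were higher, a rule that called 17.3% of all tested genes higher: Dusp14, a small phosphatase that dampens T cell receptor signals (1.96 ± 0.54, SE), and Dusp28 (1.16 ± 0.49, SE). Dusp14 also passed the adjusted threshold of DESeq2 in the higher direction, which 1.83% of genes did. Dusp11, an RNA phosphatase, was at -0.55 ± 0.26 (SE) and Dusp3, a phosphatase of ERK and JNK, at -0.46 ± 0.22 (SE), and neither passed. With the index as a term, 7 of the 10 had negative values, the median was -0.22 and none was higher at that level of p. The shares of all tested genes with negative values or called higher in that fit were not computed. Sprouty and Spred proteins block ERK signals at the level of Ras and Raf. Of 7 such genes 5 were tested, and 1 was lower at an unadjusted p under 0.05, Spred3 (-1.49 ± 0.37, SE), against 11.1% of all tested genes. DESeq2 also called Spred3 lower after adjustment, as it did 3.22% of genes. Spry1 (0.84 ± 0.40, SE), Spred2 (-0.81 ± 0.61, SE) and Spred1 (-0.20 ± 0.45, SE) did not pass.

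The family members of Zfp36 and the Ier genes gave no call in the lower direction among 4 tested of 5. Zfp36l1 (-0.77 ± 0.38, SE) and Zfp36l2 (-0.84 ± 0.47, SE), paralogous decay factors, had negative values that did not pass. Ier3ip1, an endoplasmic reticulum protein named as a partner of Ier3, was higher at an unadjusted p under 0.05 (0.86 ± 0.34, SE), as were 17.3% of all tested genes. Ier5l was at 0.35 ± 0.45 (SE). Of 18 messages known to be bound by Zfp36, with Myc also among the early response factors, 11 were tested and 8 had negative values, with a median of -0.43. Of the 11, 3 were lower at an unadjusted p under 0.05, against 11.1% of all tested genes. Those 3 were the activation marker Cd69 (-1.83 ± 0.44, SE), cyclin D1 (Ccnd1, -1.27 ± 0.37, SE) and the chemokine Ccl3 (-1.64 ± 0.57, SE), and the survival gene Bcl2 was at 0.88 ± 0.39 (SE), which did not pass.

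The phosphatases act on the MAP kinases, while the list that follows also holds the kinases upstream of them in the cascades. Among 26 kinases of the MAP kinase cascades, 24 were tested and their median was -0.33, with 2 lower and 2 higher where the unadjusted p is under 0.05. Over all tested genes that rule called 11.1% lower and 17.3% higher. Braf (-1.85 ± 0.52, SE), the first kinase of the ERK cascade, and Map3k8 (-1.0 ± 0.31, SE), which links NF-kB signals to ERK, were the lower ones. Mapk3, which encodes ERK1 (1.05 ± 0.41, SE), and Map2k3, an activator of p38 (0.48 ± 0.21, SE), were the higher ones. With the index as a term none of the 24 was lower, against 5.33% of all tested genes, and 2 were higher. The share of all tested genes called higher in that fit was not computed, so the 2 have no background. The median was 0.08, against 0.03 over all tested genes.

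Transcription factors of the early response are induced by the same signals as the members. Of 24 factors 22 were tested and 20 had negative values, with a median of -1.14 and a range from -4.85 to 0.39. Of these 22, 11 were lower at an unadjusted p under 0.05, against 11.1% of all tested genes. Klf4 (-4.0 ± 0.79, SE), Egr1 (-3.21 ± 0.74, SE), Fosb (-4.85 ± 1.13, SE) and Atf3 (-2.71 ± 0.69, SE) had the smallest p. DESeq2 called 10 of the list lower after adjustment, against 3.22% of genes. With the index as a term 1 of the 22 was lower, against 5.33% of all tested genes, and the median was -0.81. Inhibitors from other pathways formed a further list of 15 genes, of which 14 were tested. The median was -0.83, and at an unadjusted p under 0.05 the list held 6 lower genes and 1 higher gene. Over all tested genes that rule called 11.1% lower and 17.3% higher. The inhibitor of G protein signals Rgs1 (-3.18 ± 0.57, SE), the stress phosphatase subunit Ppp1r15a (-2.83 ± 0.63, SE), the NF-kB regulator Nfkbiz (-1.60 ± 0.37, SE) and the cytokine inhibitor Socs3 (-0.77 ± 0.22, SE) had the smallest p. Of these 14, 6 were lower at that level of p in the fit with the index as a term, against 5.33% of all tested genes. No gene of these lists passed edgeR's adjusted threshold.

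**Figure D4:**
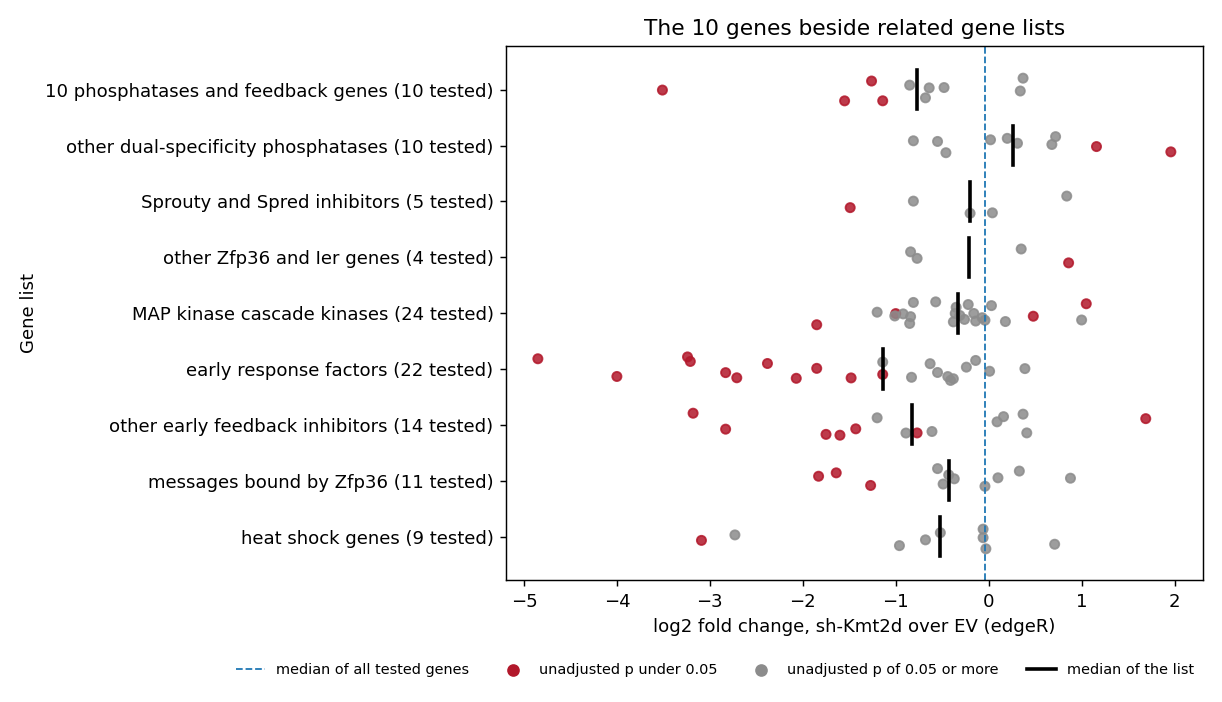
Log2 fold change, sh-Kmt2d over EV (edgeR), of every tested gene in the 10-gene set and in 8 related lists, red where the unadjusted p is under 0.05, with the median of each list as a black bar and the median of all tested genes (-0.04) as a dashed line. Medians run from -1.14 for the early response factors to 0.26 for the other dual-specificity phosphatases, and the 10-gene set is at -0.77.

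The courses of the members over the 9 libraries were also compared pair by pair. Correlations here are Pearson's r of log2 CPM over 9 libraries, which share the vector, title and index differences, and are given as a description. The strongest pairs were Dusp1 with Dusp6 (0.95), Dusp1 with Zfp36 (0.92) and Ier2 with Zfp36 (0.91), and the most opposed was Dusp10 with Ier5 (-0.92). Over all 45 pairs the median was 0.47, and 0.33 for deviations from the group means. Set against the mean profile of the members, Zfp36 (0.987), Dusp1 (0.955) and Dusp6 (0.921) came first and Dusp5 (-0.224) and Dusp10 (-0.539) last, each gene being part of that mean.

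Among 10039 other tested genes with a mean of at least 5 CPM, r with the mean member profile had a median of 0.035 and reached 0.9 in 0.677%. The 8 most alike were Klf4 (0.981), Slc25a22 (0.965), Zfp788 (0.965), Mir5107 (0.960), Junb (0.954), Pank4 (0.954), Fosb (0.950) and Gm15675 (0.948). Klf4, Junb and Fosb are early response factors of the list above. Slc25a22, a mitochondrial glutamate carrier, and Pank4, of the pantothenate kinase family, followed the same course with small differences between the groups, at log2 fold changes of -0.29 ± 0.18 (SE) and -0.18 ± 0.20 (SE), against -4.0 ± 0.79 (SE) for Klf4.

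B cell markers were abundant in every library, and the 12 genes summed to 22180 to 24460 CPM in EV and 25350 to 51120 CPM in sh-Kmt2d. Single markers did not all follow that sum, since 7 of the 12 had negative log2 fold changes (median -0.14). Over all tested genes 6927 of 13349 had negative values. None was lower and 3 were higher at an unadjusted p under 0.05, a rule that called 17.3% of all tested genes higher. Markers of other cells were present at lower sums, with no marker at 0 in all libraries. Macrophages are known to express several of the members, and their markers summed to 198 to 725 CPM in EV and 162 to 321 CPM in sh-Kmt2d. Of these markers, 11 of 12 had negative log2 fold changes, 4 of them at an unadjusted p under 0.05, a rule that called 11.1% of all tested genes lower. For 4 of the 12 (Marco, Mrc1, Itgam and Csf1r) every sh-Kmt2d library lay below every EV library, as for 5.12% of tested genes, and the others overlapped. All 12 macrophage markers were negative once the index was in the fit (median -1.4). In that fit 3 of them were lower at an unadjusted p under 0.05, against 5.33% of all tested genes. The highest macrophage sum was in EV replicate 1, and EV replicates 2 and 3, where most members peaked, had 225 and 198 CPM. T cell markers summed to 123 to 178 CPM in EV and 191 to 441 CPM in sh-Kmt2d. Single T cell markers were divided: 3 of 11 had negative values, and at that level of p 2 were lower and 3 were higher. Platelet markers summed to 73.4 to 169.8 CPM in the EV group against 12.9 to 106.5 CPM, and endothelial and stromal markers to 108 to 239.5 CPM against 36.9 to 161 CPM. Only 3 of 7 platelet markers and 3 of 11 endothelial and stromal markers were tested. All of those had negative values, and 2 in each list were lower at that level of p. EV replicate 4 had the highest sums of erythroid (1081 CPM) and neutrophil markers (215 CPM), against 66.9 to 208 CPM and 7.63 to 16.6 CPM in the other EV libraries. In sh-Kmt2d these sums ran from 115 to 318 CPM and from 2.72 to 51.1 CPM. The highest sh-Kmt2d sums of B cell, macrophage, T cell, erythroid and neutrophil markers were all in replicate 5. Its scaling factor of 0.536 raises its CPM, and the other sh-Kmt2d libraries had B cell sums of 25350 to 41800 CPM. The part of these cells in the members' differences was not tested.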

How the data were processed

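The deposited tables hold raw counts per gene, as the authors counted them, not normalized. Per the submitters' processing notes, CASAVA 1.8.2, HTSeq 0.6.0 and mm9 were used, and the aligner, the annotation and any use of strand are not named in these sources. Rows that name no gene (5 per library, among them non-unique alignments at 36.5% to 73.7%) were left out. Groups follow the vector in the labels. Counts of 4 EV and 5 sh-Kmt2d libraries were compared with edgeR 4.0.16 (filterByExpr, TMM, robust quasi-likelihood F-test, two-sided, R 4.3.3), adjusted by Benjamini-Hochberg over 13349 genes. Each SE is approximate (the log2 fold change over the root of its F). CPM are TMM-scaled unless stated. Alternatives were DESeq2 1.42.0, limma 3.58.1 with voom (quality weights or a block), other scalings, no filter, libraries left out and the index as a term. Symbols were found for 32860 of 37583 identifiers (87.4%). No pair of libraries of a group agreed within sampling noise (chi-square per gene at least 23). The edgeR and DESeq2 fits of group alone were tried on simulated counts, and the limma fits and those with a block or the index were not. Named genes are the 10 members, up to 4 per list by smallest p, the 8 most alike and Kmt2d, with other markers as sums. Members and lists were chosen with earlier results of these data known. Reads of overlapping genes cannot be told apart. The 6 H3K4me1/2 peak lists were not used, since no mm9 annotation was at hand to join them to genes.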

Additional observations from a re-analysis of the deposited data

Results flagged for a closer look

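Each member was examined for a single library far from the rest of its group, in 20 groups of values, and chance alone marks about 1 in 20 such groups. Dusp2 in sh-Kmt2d replicate 5 stood at 314 CPM, above the other 4 sh-Kmt2d libraries at 132 to 158 CPM. By total counts, without that library's scaling factor of 0.536, Dusp2 reached 168 CPM in it, within the 143 to 171 CPM of the others. Dusp4 in the same library stood at 3.47 CPM (11 counts), below the others at 11.5 to 17.0 CPM. Dusp6 in EV replicate 4 stood at 35.3 CPM, below the other EV libraries at 96.5 to 113 CPM.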

How the results depend on the processing

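No member passed the adjusted edgeR threshold with other size factors, total counts, no filter, any library left out, title 110 left out, titles 87 and 103 alone, either title number as a block or the index as a term. DESeq2 called 3 of 10 lower, against 3.22% of genes. The limma-voom fit with quality weights called 8 of 10 lower, against 30.3% of all tested genes, with a median log2 fold change of -1.29 for the members. At an unadjusted p under 0.05, 8 members were lower with those weights (32.6% of all tested genes). The count was 1 with the first title number as a random replicate block (limma, correlation 0.439, 7.03% of all tested genes). It was 7 with the last title number as a fixed replicate block (14.6%), beside 4 with all libraries and no block (11.1%). Among the RNA libraries only sh-Kmt2d replicate 5 has the last number 3, so in the block fit it adds nothing to the difference between the groups. With that library left out and no block, the count was 6 (18.1%). The effect of the block itself cannot be told apart from the loss of that library. Of the 5 pairs with the same last number, the correlations of deviations were 0.36, -0.04, 0.41, -0.23 and -0.30. EV replicates 1 and 3 correlated best with a library of the same number, and EV replicates 2 and 4 with a library of another number. These correlations cannot decide whether the last numbers pair the libraries, since the libraries also differ in the index. Leaving out 1 library at a time gave 3 to 6 members lower, against 5.64% to 18.1% of all tested genes, and medians from -1.03 to -0.60. Members whose groups did not overlap numbered 0 to 5: 5 without EV replicate 4, and 1, Dusp1, without sh-Kmt2d replicate 3. In those fits the groups of 38.1% and 41.3% of all tested genes stood apart in either direction. Total counts as library sizes moved the median of all genes from -0.04 to -0.20 and gave 6 members lower (9.55% of all tested genes). With the index as a term, Dusp4 turned to 0.40 and Dusp10 to -0.17. The cause was not tested. All other values of single members kept their sign. Depth limits Ier3 (6 to 22 counts) and Dusp4 in sh-Kmt2d replicate 5.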

Other observations

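Heat shock genes, which also respond within minutes to stress, were the one early response list not described above. Of 9 genes, all tested, 8 had negative log2 fold changes, against 6927 of all 13349 tested genes, and the median was -0.52. Only 1 was lower at an unadjusted p under 0.05, against 11.1% of all tested genes. Hspa1a, the inducible Hsp70, was at -3.09 ± 1.27 (SE) with 2.04 to 457 CPM in EV and 0.946 to 53.5 CPM in sh-Kmt2d. Its near-identical copy Hspa1b, whose reads the counting may not separate from it, was at -2.73 ± 1.27 (SE). Hsp90aa1 (-0.96 ± 0.54, SE) and Dnajb1 (-0.68 ± 0.47, SE) did not pass. DESeq2 called none of the 9 after adjustment.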
